A study of Sus scrofa with 9 samples.

Results

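The proteasome, heat shock protein and chaperonin genes of the pig esophagus were followed across submucosal gland, squamous tissue and spheroids grown from the glands. Members were chosen by gene symbol alone: proteasome subunits and partners (PSMA to PSMG), heat shock proteins (HSP), J-domain proteins (DNAJ), subunits of the cytosolic chaperonin (CCT and TCP1) and BAG co-chaperones. The symbols matched 108 genes, and 3 chaperones of the endoplasmic reticulum (HSPA5, DNAJB9 and DNAJB11) were left out, which left 105 members among 12217 genes with a named probe set. Of these, 35 belong to the proteasome and 67 were counted by name with the heat shock and chaperone families. The remaining 3 match by spelling only: PSMC3IP, a partner of meiotic recombinases, and TCP11 and TCP11L2, which are not chaperonin subunits. Members without a matched single-symbol probe set, among them HSP90AA1, HSPA1A, HSPA1L, PSMB8, PSMB10, PSMC4, PSMG1 and CCT5, were not analysed here.

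Expression was read as log2 RMA levels on 9 Affymetrix PorGene 1.0 ST arrays, 1 sample each, on which 1 unit stands for 2-fold. In all, 3 arrays held esophageal submucosal glands (ESMG) and 3 held squamous tissue, both cut from pigs 37, 39 and 40, whose source is labelled as control pig esophagus. The other 3 held spheroids derived in vitro from ESMG of animals numbered pig 1, 2 and 3. Whether these are relatives of the other animals was not stated in the labels. The spheroids grew in growth factor reduced Matrigel under Advanced DMEM/F12 with B27, N2, 10 mM HEPES and 50 ng/ml human epidermal growth factor. Spheroid RNA was isolated with a different kit from tissue RNA, so kit, culture and group cannot be told apart. No genotype, strain, age or other treatment is given in the labels. Below, values of a group are listed in pig order: 37, 39 and 40 for the tissues, and 1, 2 and 3 for the spheroids.

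The 26S proteasome degrades proteins tagged with ubiquitin: a barrel-shaped 20S core with catalytic beta subunits cuts them, and a 19S cap with an ATPase ring recognises, unfolds and feeds them in. Heat shock proteins hold, fold or disentangle other proteins. HSP70 does so in cycles that J-domain proteins start and nucleotide exchange factors such as the BAG proteins end, while the ring-shaped chaperonin CCT folds actin and tubulin in a closed chamber. Both systems work in every cell, and secretory cells rely in addition on the chaperones of the endoplasmic reticulum.

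A difference was called at a limma Benjamini-Hochberg adjusted p under 0.05, taken over all 12217 genes, and a fold of at least 2. Since most proteasome differences lay under 2-fold, the number that passed the adjusted p alone stands beside it, and such genes are said to have risen or fallen. In all, 14 members were called in at least 1 of the 3 comparisons, 91 were called in none, and 51 passed the adjusted p in none. Both comparisons of spheroids use the same 3 spheroid arrays, and all 3 comparisons share arrays pairwise. With 3 arrays per group, precision is limited by their number. Taken as a whole, the members passed about as often as all genes did: 44 (41.9%) passed in spheroids versus ESMG, where 41.5% of all genes did, and 42 (40%) in spheroids versus squamous tissue, where 40.9% did. Their direction leaned upward, with 38 of the 44 and 33 of the 42 higher in spheroids (36.2% and 31.4% of members, beside 23.9% and 23.6% of all genes). In 47 members (44.8%) all spheroid arrays were above all ESMG arrays, as in 30.3% of all genes, and in 45 (42.9%) they were above all squamous arrays, as in 28.6%. In ESMG versus squamous tissue 3 members passed as higher and 4 as lower, beside 4.4% and 1.65% of all genes. The members were brighter than most genes: their median level was 8.94, beside 7.44 over all genes. Over the constitutive proteasome subunits described below it was 9.58. Shares over all genes thus include more dim genes, whose differences RMA compresses, and the part of level in these shares was not tested.

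The tissue labels were set against marker genes. AGR2 and KRT8, genes of gland epithelium, had mean levels of 12.56 and 11.20 in ESMG, 6.51 and 8.34 in squamous tissue and 11.90 and 11.47 in spheroids. Of the 11 measured genes of the gland list, 6 were called lower and 0 higher in spheroids than in ESMG (median -2.40), and 7 were called higher and 2 lower than in squamous tissue (median 2.31). KRT5, a keratin of the squamous basal layer, was high in all groups (12.85, 13.29 and 13.75), and CRNN, a gene of the upper squamous layers, stood at 12.27 in ESMG, 12.69 in squamous tissue and 8.23 in spheroids. The ESMG samples thus also carried RNA of a squamous marker. Of the 6 measured genes of the squamous list, 3 were called lower and 1 higher in spheroids than in each tissue. Their differences ran from -4.04 to 4.30 against ESMG and from -4.46 to 3.44 against squamous tissue. Both tissues held stroma: the mean of 12 fibroblast genes lay between 11.07 and 11.43 on the ESMG arrays and between 6.77 and 7.41 on the spheroid arrays. All 12 were called lower in spheroids than in each tissue. In these bulk samples, fewer cells of a type and less RNA per cell cannot be told apart. Over all genes, spheroids had 976 calls above ESMG and 1089 below, and under cyclic loess normalization 698 and 1320. Against squamous tissue the split was 1052 above and 983 below, and 810 and 1137 under cyclic loess.

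**Figure D1:**
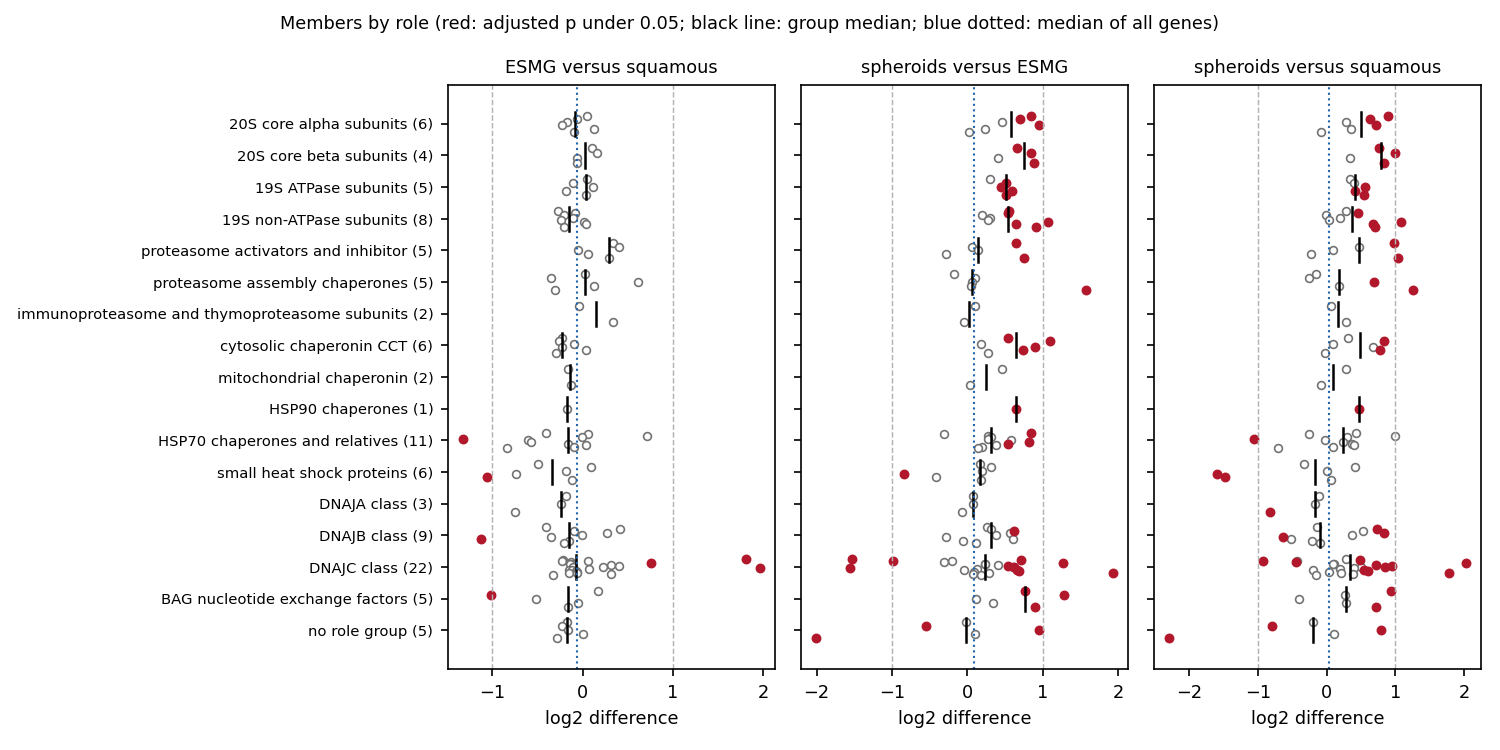
Difference in log2 RMA level of each of the 105 members (1 point each), by role group (number of members in brackets), in ESMG versus squamous tissue (left), spheroids versus ESMG (middle) and spheroids versus squamous tissue (right). Red points passed an adjusted p under 0.05, black lines are group medians, the blue dotted line is the median of all genes and dashed lines mark 2-fold. Proteasome core and cap points lie to the right of 0 in the middle panel and around 0 in the left one.

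No proteasome gene passed the test between the tissues, and many rose modestly in the spheroids. In ESMG versus squamous tissue, 0 of 35 proteasome members were called or passed the adjusted p in limma, beside 3.06% of all genes called and 6.05% passing. At an unadjusted p under 0.05 in limma, 3 of the 35 were higher and 1 lower, beside 1177 and 1090 of all 12217 genes. The ESMG arrays lay all above the squamous arrays for 4 of the 35 (11.4%) and all below for 1 (2.86%), beside 9.88% and 11.7% of all genes. Under quantile and cyclic loess normalization 1 assembly chaperone passed as higher. In spheroids versus ESMG, 18 of 35 (51.4%) rose and 0 fell, against 23.9% of all genes rising and 17.6% falling. Only 2 of the 35 (5.71%) were called, while 16.9% of all genes were. In spheroids versus squamous tissue, 17 of 35 (48.6%) rose and 0 fell, against 23.6% and 17.4% of all genes, and 3 (8.57%) were called, while 16.7% of all genes were. Under cyclic loess, 13 rose and 1 fell against ESMG, and 14 rose and 1 fell against squamous tissue.

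The 22 members that are constitutive subunits of the 20S core and the 19S cap, without the testis form PSMA8, were described together. The count of them that passed was chosen for description after the data were seen. Over all 35 proteasome members, the shares that rose in spheroids were 51.4% and 48.6%. The mean level of the 22 subunits per array was 9.67, 9.44 and 9.44 in ESMG, 9.55, 9.48 and 9.69 in squamous tissue, and 10.15, 9.92 and 10.23 in spheroids. Every spheroid array lay above every tissue array, and the tissues overlapped. In spheroids versus ESMG all 22 differences were above 0, 15 (68.2%) passed the adjusted p and the median was 0.54, beside 0.09 over all genes. In spheroids versus squamous tissue 21 of 22 were above 0, 13 (59.1%) passed and the median was 0.50, beside 0.03. Between the tissues the median was -0.06, the same as over all genes, and the 95% confidence intervals of the single subunits ran from -0.71 to 0.53. An unadjusted p under 0.05 in limma was reached by 0 of 22, while 1177 of all 12217 genes were higher and 1090 lower by that measure. Cyclic loess reduced the counts to 10 of 22 in each spheroid comparison (45.5%, beside 19.5% and 19.8% of all genes) and the medians to 0.35 and 0.29. Leaving out 1 array at a time gave 10 to 16 against ESMG, with 10 without spheroids of pig 3, and 9 to 16 against squamous tissue, with 9 without squamous pig 39 or spheroids of pig 1. On the same arrays, the mean of 8 cell cycle genes lay between 8.87 and 9.05 in spheroids, between 7.58 and 7.70 in ESMG and between 7.77 and 8.13 in squamous tissue. In each spheroid comparison 7 of the 8 rose, beside 23.9% and 23.6% of all genes. The part of proliferation or of lost stroma in the proteasome difference was not tested.

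**Figure D2:**
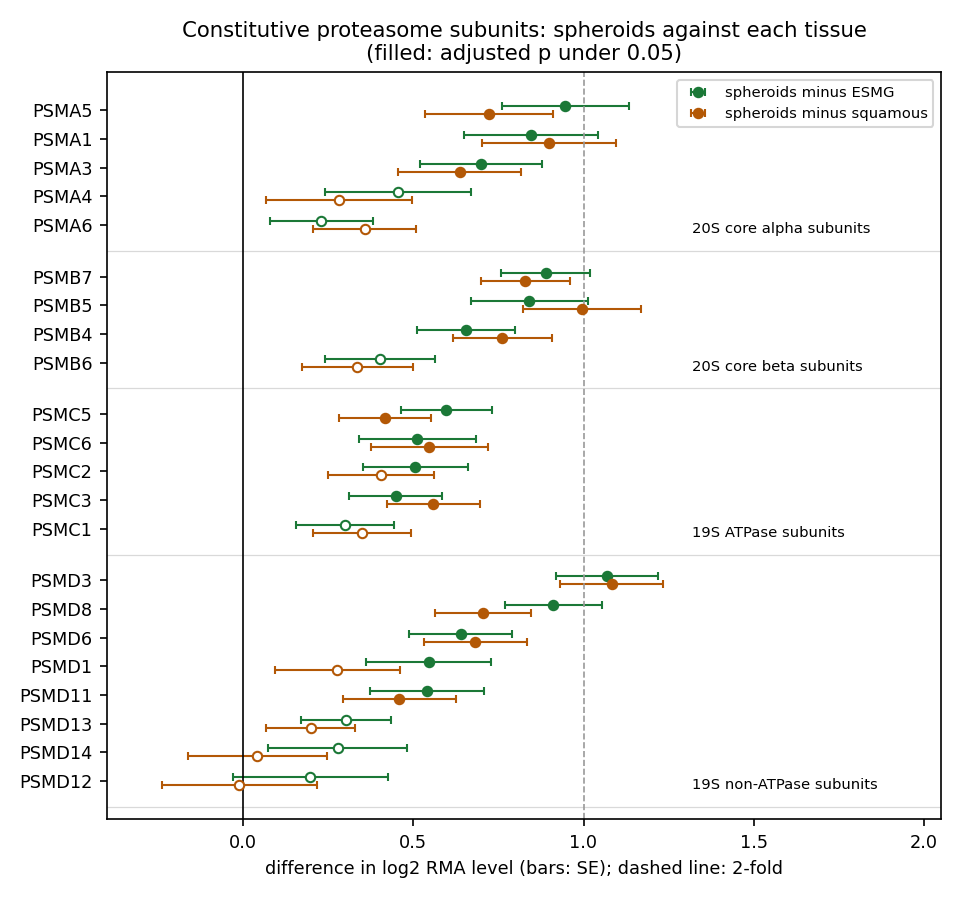
Spheroids minus ESMG (green) and spheroids minus squamous tissue (brown) in log2 RMA level for the 22 constitutive core and cap subunits, with standard errors as bars; filled points passed an adjusted p under 0.05. All points but PSMD12 against squamous tissue lie right of 0, and the points for PSMD3 alone lie beyond the dashed 2-fold line in both comparisons.

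Among the core alpha subunits, which form the outer rings and the gate, 3 of 6 rose in each spheroid comparison, beside 23.9% and 23.6% of all genes. Their medians were 0.58 against ESMG and 0.50 against squamous tissue. PSMA5 read 8.58, 7.88 and 8.29 in ESMG, 8.31, 8.35 and 8.76 in squamous tissue, and 9.26, 9.18 and 9.14 in spheroids. All spheroid arrays exceeded all tissue arrays. PSMA5 was 0.95 ± 0.19 (SE, n = 3 per group) above ESMG (adjusted p = 0.00164) and 0.72 ± 0.19 above squamous tissue (adjusted p = 0.00875). PSMA1 rose by 0.85 and 0.90 (adjusted p = 0.00454 and 0.00327) and PSMA3 by 0.70 and 0.64 (adjusted p = 0.0083 and 0.0142). PSMA8, the testis form of an alpha subunit, had the smallest differences (0.02 and -0.08), at means of 3.36, 3.46 and 3.38 in ESMG, squamous tissue and spheroids, under the lower quartile of every array.

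Of the core beta subunits, 3 of 4 rose in each spheroid comparison, beside 23.9% and 23.6% of all genes, with medians of 0.75 and 0.80. PSMB5 carries the chymotrypsin-like activity that clinical proteasome inhibitors target. It read 9.22, 9.17 and 9.21 in ESMG, 9.01, 8.75 and 9.38 in squamous tissue, and 10.06, 9.84 and 10.23 in spheroids. The spheroid arrays stood above the others without overlap. The increases were 0.84 ± 0.17 over ESMG (adjusted p = 0.00207) and 1.00 ± 0.17 over squamous tissue (adjusted p = 0.000684), a 1.99-fold difference just under the fold limit. PSMB7, the trypsin-like subunit, rose by 0.89 ± 0.13 and 0.83 ± 0.13 (adjusted p = 0.000213 and 0.000343), and PSMB4, a non-catalytic subunit, by 0.65 and 0.76. The third active subunit, PSMB6 (caspase-like), did not pass, at 0.40 (adjusted p = 0.0681) and 0.34 (adjusted p = 0.127).

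PSMB9 is an immunoproteasome subunit that interferon induces and that replaces PSMB6. It read 7.89, 7.14 and 7.23 in ESMG, 7.27, 7.36 and 6.63 in squamous tissue, and 7.14, 7.53 and 7.46 in spheroids, and the groups overlapped. Its differences were -0.05 (95% confidence interval -0.57 to 0.47) against ESMG and 0.29 (-0.23 to 0.81) against squamous tissue. Of 18 interferon response genes, 8 and 7 were called lower in spheroids and 0 higher. Of all genes, 8.91% and 8.05% were called lower, and 7.99% and 8.61% higher. A dimmer second probe set of PSMB9 had means of 5.20, 4.61 and 5.22. PSMB11, the thymoproteasome subunit, had means between 6.84 and 6.93 and a range of 0.33 over the 9 arrays.

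In the 19S base, 4 of 5 ATPase subunits rose against ESMG and 3 of 5 against squamous tissue, beside 23.9% and 23.6% of all genes. Their medians were 0.51 and 0.42. PSMC5 had the largest difference from ESMG at 0.60 (adjusted p = 0.00371), and PSMC3 the largest from squamous tissue at 0.56 (adjusted p = 0.00633). The ATPase counts depended on scaling and on single arrays. Under cyclic loess 1 of 5 rose in each comparison, and under quantile normalization 2 and 1 did. Against ESMG 1 of 5 rose without spheroids of pig 3, and 2 of 5 without ESMG pig 39 or spheroids of pig 1. Against squamous tissue 1 of 5 rose without squamous pig 37, squamous pig 39, spheroids of pig 1 or spheroids of pig 3, and 5 of 5 with array weights. Of the 8 non-ATPase cap subunits, 5 rose against ESMG and 4 against squamous tissue, beside the same shares of all genes. PSMD3, a scaffold subunit of the lid, read 9.68, 9.39 and 9.55 in ESMG, 9.60, 9.72 and 9.26 in squamous tissue, and 10.64, 10.60 and 10.59 in spheroids. The spheroid values were nearly equal to each other and all above the tissues. Among the 22 constitutive subunits matched by symbol, only PSMD3 was called, at 1.07 ± 0.15 (2.1-fold, adjusted p = 0.000159) and 1.08 ± 0.15 (2.12-fold, adjusted p = 0.00014). It fell under 2-fold under quantile or cyclic loess normalization in both comparisons, without ESMG pig 39 in the first and without squamous pig 40 in the second, with 0.89 as its lowest value. PSMD8 rose by 0.91 and 0.70 and PSMD11 by 0.54 and 0.46. PSMD1, a large scaffold of the cap, rose against ESMG only by the test (0.54, adjusted p = 0.0331) and differed from squamous tissue by 0.28 (adjusted p = 0.272); ESMG and squamous tissue differed by -0.27 (adjusted p = 0.499). PSMD12 had the smallest differences, 0.20 and -0.01. PSMD14, the enzyme that removes ubiquitin chains from substrates, did not pass on the brighter of its probe sets (0.28 and 0.04), whereas the dimmer one, not used for the gene, gave 1.22 and 1.15, so its probe sets disagree.

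The partners of the proteasome were less uniform. Of 5 activators and inhibitors, 2 rose in each spheroid comparison, beside 23.9% and 23.6% of all genes. PSME1, a subunit of the interferon-inducible 11S activator, read 10.16, 9.89 and 9.95 in ESMG, 9.69, 9.68 and 9.61 in squamous tissue, and 10.56, 10.77 and 10.58 in spheroids, so that the groups stood in order without overlap. It rose by 0.64 ± 0.13 over ESMG (adjusted p = 0.00217) and 0.98 ± 0.13 over squamous tissue (adjusted p = 0.000117). Its partner subunit PSME2 differed by 0.06 (adjusted p = 0.814) and 0.47 (adjusted p = 0.0602). The nuclear activators PSME3 (0.15 and 0.09) and PSME4 (-0.28 and -0.22) did not pass. PSMF1, first described as an inhibitor of the 20S core, read 9.63, 9.63 and 9.41 in ESMG, 9.48, 9.47 and 8.84 in squamous tissue, and 10.31, 10.36 and 10.24 in spheroids. It rose by 0.75 (adjusted p = 0.00497) over ESMG and was called over squamous tissue at 1.04 ± 0.18 (2.06-fold, adjusted p = 0.000594). Squamous pig 40 was the lowest array, and without it, as under quantile or cyclic loess normalization or array weights, the difference was under 2-fold, with 0.83 as the lowest value.

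PSMG4, a chaperone of early core assembly, had the largest difference among the 35 proteasome members. It read 6.87, 7.07 and 7.38 in ESMG, 7.12, 7.75 and 7.35 in squamous tissue, and 8.58, 9.08 and 8.35 in spheroids. The spheroid arrays stood apart from both tissues. The increases were 1.57 ± 0.22 (2.96-fold, adjusted p = 0.000166) and 1.26 ± 0.22 (2.4-fold, adjusted p = 0.000745), and the call held in all 15 alternatives of each comparison. Its partner in assembly, PSMG3, differed by 0.05 and 0.18 and did not pass. Of the base assembly chaperones, PSMD9 rose against squamous tissue (0.68, adjusted p = 0.00801) and stood 0.62 higher in ESMG than in squamous tissue (adjusted p = 0.0642), while PSMD5 and PSMD10 passed in no comparison.

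**Figure D3:**
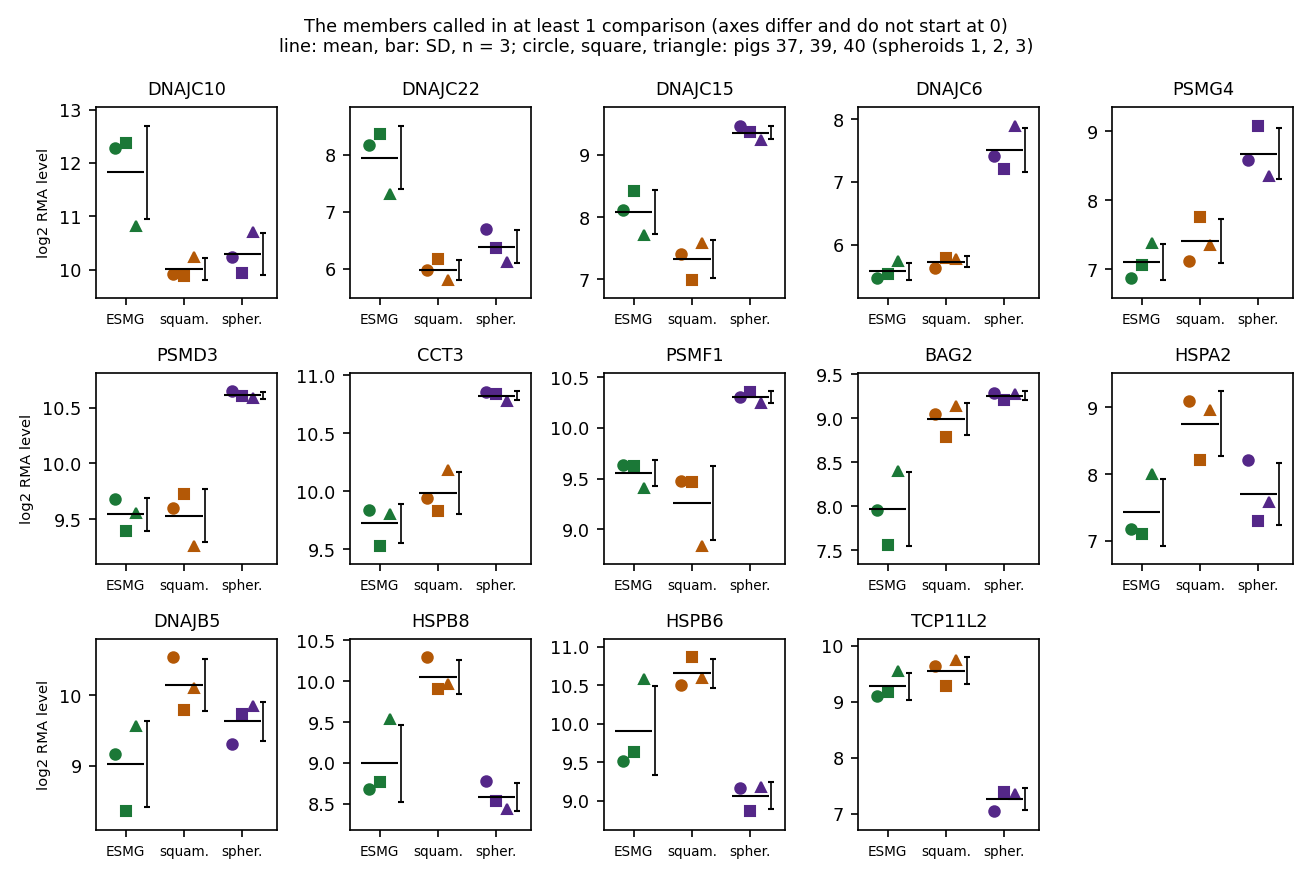
Log2 RMA level of the 14 members called in at least 1 comparison, on each array (circle, square and triangle for pigs 37, 39 and 40, or spheroids of pigs 1, 2 and 3), with the mean as a line and the SD (n = 3) as a bar. Axes differ between genes and do not start at 0. DNAJC10 and DNAJC22 are high in ESMG, HSPB6 is lowest in spheroids, and DNAJC6, DNAJC15, PSMG4 and PSMD3 are high in spheroids.

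The chaperone families held genes that were called between the tissues, whereas no proteasome member was. Whether the families differ in this was not tested. In ESMG versus squamous tissue, 6 of all 105 members (5.71%) were called, all of them chaperones or co-chaperones: 2 were higher, where 2.65% of all genes were, and 4 were lower, where 0.409% were. The median over the 67 chaperone members was -0.15, with 50 below 0, and over all genes -0.06. In spheroids versus ESMG, 4 of the 67 were called higher and 2 lower, where 7.99% and 8.91% of all genes were, and by the adjusted p 19 (28.4%) rose and 5 (7.46%) fell, where 23.9% and 17.6% of all genes did, with a median of 0.27. In spheroids versus squamous tissue, 2 were called higher and 3 lower, where 8.61% and 8.05% of all genes were, and 15 (22.4%) rose and 8 (11.9%) fell, where 23.6% and 17.4% of all genes did, with a median of 0.22. Under cyclic loess the medians were 0.09 and 0.06.

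Both chaperones called higher in ESMG are J-domain proteins. DNAJC10, known as ERdj5, is a disulfide reductase of the endoplasmic reticulum that helps to clear misfolded secretory proteins. It read 12.28, 12.38 and 10.82 in ESMG, 9.91, 9.88 and 10.24 in squamous tissue, and 10.24, 9.93 and 10.71 in spheroids. The ESMG arrays lay above all others, with pig 40 closest to them. ESMG exceeded squamous tissue by 1.82 ± 0.35 (3.52-fold, adjusted p = 0.0109), spheroids minus ESMG was -1.53 ± 0.35 (2.89-fold, adjusted p = 0.00428), and spheroids differed from squamous tissue by 0.28 (adjusted p = 0.582). DNAJC22, a J-domain protein that spans the membrane, read 8.16, 8.37 and 7.32 in ESMG, 5.98, 6.16 and 5.81 in squamous tissue, and 6.69, 6.36 and 6.12 in spheroids. Its ESMG arrays were again all above the others, pig 40 being the lowest of them. The difference was 1.97 ± 0.25 between the tissues (3.91-fold, adjusted p = 0.000795) and -1.56 ± 0.25 in spheroids versus ESMG (2.95-fold, adjusted p = 0.000397). Both genes kept their calls in all 16 and 15 alternatives. Gland markers moved alongside: all 11 measured were called higher in ESMG than in squamous tissue, and their mean level was between 10.97 and 11.90 in ESMG, lowest in pig 40, between 7.26 and 8.43 in squamous tissue and between 8.98 and 9.19 in spheroids. Their part in the 2 results was not tested. The chaperones of the same compartment that the rule left out did not pass between the tissues: HSPA5 differed by 0.41 (adjusted p = 0.399), DNAJB9 by 1.11 (adjusted p = 0.156) and DNAJB11 by 0.48 (adjusted p = 0.191). All 3 differences were above 0. At an unadjusted p under 0.05 in limma, 2 of the 3 were higher in ESMG and 0 lower, beside 1177 and 1090 of all 12217 genes.

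The 4 chaperones called lower in ESMG than in squamous tissue were HSPA2, DNAJB5, HSPB8 and BAG2. HSPA2 is an HSP70 best known from developing sperm. It read 7.19, 7.10 and 7.997 in ESMG, 9.10, 8.21 and 8.96 in squamous tissue, and 8.21, 7.30 and 7.59 in spheroids. The tissues did not overlap, and spheroids overlapped with both. The differences were -1.33 ± 0.31 for ESMG versus squamous tissue (2.51-fold, adjusted p = 0.0256) and -1.06 ± 0.31 for spheroids versus squamous tissue (2.08-fold, adjusted p = 0.0158). DNAJB5, a J-domain protein of heart and muscle, read 9.16, 8.35 and 9.56 in ESMG, 10.54, 9.80 and 10.10 in squamous tissue, and 9.31, 9.74 and 9.84 in spheroids. ESMG minus squamous tissue was -1.12 ± 0.29 (2.18-fold, adjusted p = 0.042), and spheroids lay between.

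HSPB8 and HSPB6 are small heat shock proteins, ATP-independent holders of unfolded proteins that are abundant in muscle. HSPB8, which works with BAG3 in sending clients to autophagy, read 8.68, 8.77 and 9.54 in ESMG, 10.29, 9.91 and 9.97 in squamous tissue, and 8.78, 8.53 and 8.44 in spheroids. Squamous arrays were above all others. It differed by -1.06 ± 0.22 in ESMG versus squamous tissue (2.09-fold, adjusted p = 0.0147) and -1.47 ± 0.22 in spheroids versus squamous tissue (2.78-fold, adjusted p = 0.000234). HSPB6 read 9.52, 9.64 and 10.58 in ESMG, 10.51, 10.87 and 10.60 in squamous tissue, and 9.17, 8.86 and 9.17 in spheroids. ESMG pig 40 overlapped the squamous arrays, and the spheroids were below both tissues. The difference between the tissues did not pass (-0.74, adjusted p = 0.113). Spheroids fell by 0.85 against ESMG (adjusted p = 0.0159), and their difference from squamous tissue was -1.59 ± 0.25 (3.01-fold, adjusted p = 0.000312). The fall against ESMG did not pass without spheroids of pig 2. HSPB1, the widely expressed small heat shock protein, stood at 12.48, 12.65 and 12.87 in ESMG, 13.18, 13.38 and 12.92 in squamous tissue, and 12.95, 13.06 and 12.47 in spheroids, and passed in no comparison.

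BAG2, a co-chaperone that restrains the ubiquitin ligase CHIP, read 7.95, 7.56 and 8.40 in ESMG, 9.04, 8.79 and 9.14 in squamous tissue, and 9.29, 9.20 and 9.28 in spheroids. ESMG stood below the other groups. ESMG minus squamous tissue was -1.02 ± 0.19 (2.03-fold, adjusted p = 0.00954), and spheroids exceeded ESMG by 1.29 ± 0.19 (2.44-fold, adjusted p = 0.00026), while spheroids and squamous tissue differed by 0.27 (adjusted p = 0.319).

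The 4 lower calls kept their direction in all 16 alternatives but not always the call. Their differences ran from -1.72 to -1.16 for HSPA2, from -1.49 to -0.79 for DNAJB5, from -1.37 to -0.90 for HSPB8 and from -1.23 to -0.82 for BAG2. Leaving out 1 array at a time gave 2 to 7 called members instead of 6: 2 without squamous pig 37 or without ESMG pig 39, and 3 without ESMG pig 37 or without squamous pig 40. DNAJC10 and DNAJC22 kept their calls each time, and the calls lost were among HSPA2, DNAJB5, HSPB8 and BAG2. With the pig as a fixed block on the 6 tissue arrays all 6 were called, and with the pig as a random block 4 were, without HSPA2 (adjusted p = 0.0507) and DNAJB5 (adjusted p = 0.079). Over the same arrays, 14 smooth muscle genes had mean levels of 9.64, 9.41 and 10.11 in ESMG, 10.85, 10.49 and 10.84 in squamous tissue, and 7.51, 7.54 and 7.29 in spheroids. In ESMG versus squamous tissue 5 of the 14 were called lower and 0 higher, the largest differences being those of CASQ2 (-1.73), DMD (-1.59) and PLN (-1.38), and in spheroids versus squamous tissue 13 of the 14 were called lower. Of all genes, 0.409% and 8.05% were called lower in these comparisons. The share of smooth muscle in HSPB6, HSPB8, HSPA2 and DNAJB5 was not tested.

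Of the abundant cytosolic chaperones, HSP90AB1, the constitutive HSP90, read 11.96, 11.94 and 12.17 in ESMG, 12.21, 12.16 and 12.22 in squamous tissue, and 12.68, 12.51 and 12.81 in spheroids. Spheroids were highest without overlap. It rose by 0.65 ± 0.13 over ESMG (adjusted p = 0.00232) and 0.47 ± 0.13 over squamous tissue (adjusted p = 0.0145). The rise over squamous tissue did not pass without spheroids of pig 1 or without spheroids of pig 3. HSPA8, the constitutive HSP70, read 12.87, 12.54 and 12.64 in ESMG, 13.05, 12.56 and 12.93 in squamous tissue, and 13.28, 13.12 and 13.26 in spheroids. The spheroid arrays were again the highest. The rise passed against ESMG (0.54 ± 0.16, adjusted p = 0.018) but not against squamous tissue (0.37 ± 0.16, adjusted p = 0.0848). A dimmer probe set of HSPA8, not used for the gene, had means of 12.06 in ESMG, 12.31 in squamous tissue and 12.41 in spheroids. Its spheroid differences were 0.35 against ESMG and 0.10 against squamous tissue. Of 11 measured HSP70 proteins and relatives, 3 rose and 0 fell against ESMG, beside 23.9% and 17.6% of all genes. Against squamous tissue 0 rose and 1 (HSPA2) fell, beside 23.6% and 17.4% of all genes. Besides HSPA8, those that rose against ESMG were HSPA12A (0.84) and HSPA4L, an HSP110-type exchange factor (0.81). HSPA4 (0.58 and -0.02) and the mitochondrial HSPA9 (0.37 and 0.41) did not pass. The subunits of the mitochondrial chaperonin did not pass either: HSPD1 differed by 0.45 (adjusted p = 0.0839) and 0.29 (adjusted p = 0.276), and HSPE1 by 0.04 and -0.09.

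**Figure D4:**
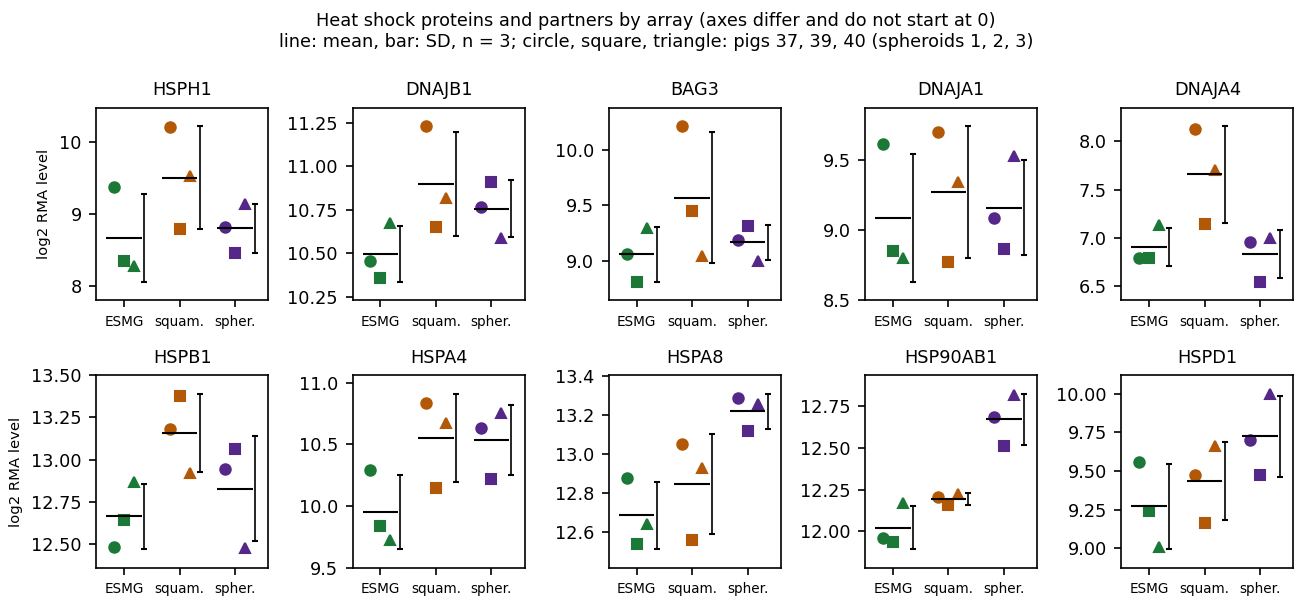
Log2 RMA level of 10 heat shock proteins and partners on each array (circle, square and triangle for pigs 37, 39 and 40, or spheroids of pigs 1, 2 and 3), with the mean as a line and the SD (n = 3) as a bar; axes differ and do not start at 0. In the upper row the squamous array of pig 37 is the highest of the 9 for every gene, and HSP90AB1 and HSPA8 are highest in the spheroids.

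HSPH1, BAG3 and DNAJB1 are genes that the transcription factor HSF1 induces when proteins unfold. HSPH1, the inducible HSP110, read 9.37, 8.35 and 8.28 in ESMG, 10.20, 8.78 and 9.52 in squamous tissue, and 8.82, 8.45 and 9.13 in spheroids. BAG3 read 9.06, 8.81 and 9.30, then 10.21, 9.45 and 9.05, then 9.19, 9.31 and 8.9985 in the same groups. DNAJB1, the main J-domain partner of inducible HSP70, read 10.46, 10.36 and 10.67, then 11.23, 10.65 and 10.81, then 10.77, 10.91 and 10.59. All 3 genes were highest in squamous pig 37, and the groups overlapped in every comparison. None passed: ESMG minus squamous was -0.84 for HSPH1 (adjusted p = 0.236), -0.51 for BAG3 (adjusted p = 0.312) and -0.40 for DNAJB1 (adjusted p = 0.238). DNAJA1 was highest in pig 37 within each tissue (9.61 against 8.85 and 8.80 in ESMG, 9.70 against 8.77 and 9.34 in squamous tissue) and its differences between groups ran from -0.18 to 0.07. DNAJA4 read 8.13, 7.14 and 7.70 in squamous tissue, with no array below the ESMG (6.79, 6.80 and 7.14) or spheroid arrays (6.96, 6.55 and 7.001), and fell in spheroids versus squamous tissue by 0.82 (adjusted p = 0.0141). This fall did not pass without squamous pig 37 or without spheroids of pig 2. Over the 67 chaperone members, squamous pig 37 held the highest of the 9 values for 11 (16.4%), and over all genes for 756 (6.19%). Spheroids of pig 3 held it for more of the 67, 14 (20.9%), and spheroids of pig 2 for 13 (19.4%). Over all genes these arrays held it for 15.1% and 17.4%.

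Of the chaperonin CCT, 4 of 6 measured subunits (66.7%) rose against ESMG, with a median of 0.64, and 2 of 6 (33.3%) against squamous tissue, with a median of 0.49, where 23.9% and 23.6% of all genes rose. The first count was 2 of 6 without ESMG pig 40 or without spheroids of pig 3, and the second 4 of 6 with array weights. CCT3 read 9.84, 9.53 and 9.80 in ESMG, 9.94, 9.83 and 10.18 in squamous tissue, and 10.85, 10.84 and 10.78 in spheroids, which stood above both tissues. It was called against ESMG at 1.10 ± 0.14 (2.14-fold, adjusted p = 9.21e-05), a fold lost under quantile or cyclic loess normalization (0.93 at the lowest), and rose by 0.84 ± 0.14 over squamous tissue (adjusted p = 0.000631). CCT7 rose by 0.74 and 0.78 (adjusted p = 0.000892 and 0.000615). CCT6A (0.90, adjusted p = 0.0205) and CCT2 (0.54, adjusted p = 0.0216) rose against ESMG alone by the test, and differed from squamous tissue by 0.67 (adjusted p = 0.0724) and 0.31 (adjusted p = 0.162). TCP1 (0.27 and -0.02) and CCT4 (0.18 and 0.09) did not pass, although the subunits work in 1 complex.

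The J-domain proteins of the DNAJC class carry their J domain to particular sites in the cell. Against ESMG 7 of 22 (31.8%) rose and 3 fell, where 23.9% of all genes rose and 17.6% fell. Against squamous tissue 8 (36.4%) rose and 2 fell, where 23.6% and 17.4% of all genes did. DNAJC6, auxilin, which strips clathrin coats together with HSC70, read 5.47, 5.53 and 5.73 in ESMG, 5.63, 5.79 and 5.78 in squamous tissue, and 7.41, 7.21 and 7.89 in spheroids. The tissue values lay near the lower quartile of the arrays (5.36 to 5.65), where RMA compresses differences. The spheroids stood 1.93 ± 0.18 (3.81-fold, adjusted p = 6.59e-06) above ESMG and 1.78 ± 0.18 (3.42-fold, adjusted p = 1.12e-05) above squamous tissue. DNAJC15, a J-domain protein of the inner mitochondrial membrane, read 8.12, 8.42 and 7.71 in ESMG, 7.40, 6.99 and 7.58 in squamous tissue, and 9.46, 9.37 and 9.24 in spheroids. The groups were ordered without overlap, spheroids over ESMG over squamous tissue. The differences were 1.27 ± 0.20 over ESMG (2.42-fold, adjusted p = 0.000351), 2.03 ± 0.20 over squamous tissue (4.08-fold, adjusted p = 1.13e-05) and 0.76 ± 0.20 between the tissues (adjusted p = 0.0492, under 2-fold). For DNAJC15 the difference between the tissues did not pass without ESMG pig 37 or 39, or without squamous pig 37, 39 or 40. Its relative DNAJC19, of the same membrane, rose by 0.54 and 0.95 (adjusted p = 0.0172 and 0.000568). DNAJC12, a J-domain protein of aromatic amino acid hydroxylases, fell by 0.98 and 0.93 (adjusted p = 0.000681 and 0.00102), from 6.49, 6.35 and 5.82 in ESMG and 6.14, 6.20 and 6.14 in squamous tissue to 5.15, 5.22 and 5.33 in spheroids, which is below the lower quartile of the arrays.

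Of 9 DNAJB members, 1 rose against ESMG, and 2 rose and 1 fell against squamous tissue. Of all genes, 23.9% rose against ESMG, and 23.6% rose and 17.4% fell against squamous tissue. The DNAJB members that rose against squamous tissue, DNAJB12 (0.73) and DNAJB14 (0.84), sit in the membrane of the endoplasmic reticulum. Of 5 BAG proteins, 3 rose against ESMG and 2 against squamous tissue, beside the same 23.9% and 23.6% of all genes. BAG1, an exchange factor that can also dock on the proteasome, read 8.88, 8.78 and 8.76 in ESMG, 8.65, 8.19 and 9.08 in squamous tissue, and 9.45, 9.57 and 9.70 in spheroids. Spheroids exceeded both tissues, by 0.76 ± 0.20 (adjusted p = 0.00817) and 0.94 ± 0.20 (adjusted p = 0.00247). BAG6, which guards newly made membrane proteins, rose by 0.89 and 0.73 (adjusted p = 0.000614 and 0.00244).

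Of the members that match by spelling only, TCP11L2 read 9.10, 9.18 and 9.54 in ESMG, 9.64, 9.29 and 9.75 in squamous tissue, and 7.05, 7.39 and 7.36 in spheroids. The spheroid arrays stood well below the rest. It had the largest fall of all members, -2.01 ± 0.18 (4.03-fold, adjusted p = 4.93e-06) and -2.29 ± 0.18 (4.9-fold, adjusted p = 1.57e-06), and is no chaperone. PSMC3IP rose by 0.95 and 0.79 (adjusted p = 0.00103 and 0.00353). Counts over the proteasome or chaperone families above leave these genes out. They keep HSPBAP1 and CCT8L2, which were counted as chaperones by name but placed in no role group. HSPBAP1 fell by 0.55 and 0.79 (adjusted p = 0.0385 and 0.00657) and is among the 5 and 8 chaperone members that fell. CCT8L2 passed in no comparison.

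Genes of the same pathways that the symbols do not catch were counted by lists. HSF1 read 7.82, 7.90 and 8.20 in ESMG, 8.12, 8.33 and 7.95 in squamous tissue, and 9.42, 9.51 and 9.12 in spheroids, above all tissue arrays. It was called higher at 1.37 ± 0.17 (2.59-fold, adjusted p = 5.09e-05) and 1.21 ± 0.17 (2.32-fold, adjusted p = 0.000121), and no other of 5 measured regulators was called. HSF2 and NFE2L2, the latter a regulator of proteasome genes under oxidative stress, fell against squamous tissue by 0.46 (adjusted p = 0.0477) and 0.55 (adjusted p = 0.0233). Of 17 co-chaperones of HSP70 and HSP90, 9 rose and 1 fell against ESMG, beside 23.9% and 17.6% of all genes. Against squamous tissue 7 rose and 1 fell, beside 23.6% and 17.4% of all genes. TRAP1, the mitochondrial HSP90, was called higher in both (1.56 and 1.19, adjusted p = 1.29e-05 and 8.62e-05). FKBP4, an immunophilin of steroid receptor complexes, was called against ESMG (1.09, adjusted p = 9.98e-05). FKBP5, its counterpart that glucocorticoids induce, was called lower against ESMG (-1.43, adjusted p = 0.000272).

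Of 8 genes of prefoldin, which delivers clients to CCT, and of CCT assistants, 5 rose against ESMG and 6 against squamous tissue. Their medians were 0.72 and 0.74, and 23.9% and 23.6% of all genes rose. Called in both were PFDN6 (1.25 and 1.34), TXNDC9 (1.24 and 1.60) and PFDN4 (1.08 and 1.17). Of 9 further proteasome partners, 3 and 2 rose, and SEM1, the smallest lid subunit, was called in both (1.67 ± 0.28 and 1.71 ± 0.28, adjusted p = 0.000598 and 0.000509). It read 8.83, 8.76 and 7.99 in ESMG, 8.58, 7.97 and 8.92 in squamous tissue, and 10.52, 10.26 and 9.81 in spheroids. Of 4 ubiquitin genes and E1 enzymes, UBA1 (0.89 and 0.57) and the fusion gene RPS27A (0.75 and 0.96) rose, and 0 were called. Between ESMG and squamous tissue 0 genes of these lists passed in limma, beside 6.05% of all genes. At an unadjusted p under 0.05 in limma, 1 co-chaperone was higher and 3 were lower. By that measure 1 gene of the prefoldin list and 1 of the ubiquitin list were lower, and 0 regulators and 0 proteasome partners passed. Of all 12217 genes, 1177 were higher and 1090 lower.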

How the data were processed

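The deposited values are log2 RMA levels per probe set from the gene-level analysis of Expression Console, as stated per the labels. The submitters' processing notes also name Transcriptome Analysis Console 3.0, with no role given. RMA makes the distributions of arrays alike, so differences in total RNA are lost and those near the floor are compressed. A genome build was not given in the sources used here, so no coordinates or sequences are given. Of 27558 probe sets, 13157 had 1 gene symbol in the platform annotation, 523 several and 13878 none; 12841 matched the RefSeq gene table by gene number, which changed 7 symbols. The probe set with the highest mean over 9 arrays stood for a gene (12217 genes; 881 had several, 5 of them members).

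A model of group means was fitted to the 9 arrays in limma 3.58.1 (lmFit, eBayes) (R 4.3.3, statmod 1.5.0; 6 residual degrees of freedom; median standard error 0.17), with two-sided tests adjusted by Benjamini-Hochberg over all genes. The fit was tested on simulated data. Tables and plots used Python 3.11.15, pandas 2.3.3, numpy 2.4.6 and matplotlib 3.10.9. Array medians were 6.84 to 7.04. Of the members, 10 had a mean level under 6.56, the limit of the filter on dim genes. ESMG and squamous arrays of 1 number come from the same pig; their deviations from the group means correlated at 0.42 (pig 37), -0.15 (pig 39) and -0.17 (pig 40). Samples of a group come from separate pigs, per the labels.

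Members, role groups, pathway and marker lists were chosen with earlier results of these data known, and a list is described by counts and medians without a test. Genes named are the key members of each family, every called member, the members with the largest and smallest difference of a role group, and from the other lists up to 3 called genes and defining markers; others were named after their values were seen. The probe set counted as DNAJB6 is called DNAJB7 by the platform. Alternatives were 3 other scalings, a filter on dim genes, the mean of probe sets, other variance settings, pig blocks and leaving out each array.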

Additional observations from a re-analysis of the deposited data

How the results depend on the processing

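None of the results below changed direction under any alternative run. In ESMG versus squamous tissue, leaving out 1 array gave 2 to 7 called members (6 with all arrays) and 276 to 569 called genes (374), 569 being without ESMG pig 40; by adjusted p alone 739 genes passed. In spheroids versus ESMG, leaving out 1 array gave 8 to 14 called members (9), the highest without ESMG pig 37; by adjusted p alone 44 members and 5069 genes passed. In spheroids versus squamous tissue leaving out 1 array gave 8 to 11 (9), and by adjusted p alone 42 members and 5002 genes passed. Members' median in spheroids versus ESMG moved from 0.30 to 0.12 under cyclic loess, where the median of all genes moved from 0.09 to 0.01. The pig as a fixed replicate block gave 6 called members and 397 genes between the tissues, and as a random replicate block (correlation -0.15) 4 and 335; the random block lost no called member in the spheroid comparisons. Of the 24 calls of single members, those of DNAJB5 (7 of 16 alternatives), HSPA2 (5 of 16 between the tissues, 4 of 15 in spheroids versus squamous tissue), HSPB8 and BAG2 (3 of 16 each between the tissues), PSMF1 (4 of 15), PSMD3 (3 of 15 in each spheroid comparison) and CCT3 (2 of 15) were lost at least once, by fold or by p. DNAJC6 could not be tested under the filter on dim genes, which removes it. The 3 arrays per group limit all counts.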
